A study of Mus musculus with 16 samples.

Results

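The 41 genes described here belong to 2 linked stress programs of mammalian cells, the integrated stress response and the unfolded protein response of the endoplasmic reticulum (ER). They were taken from the expression table by gene symbol alone, and all 41 were found among its 53679 symbols. By role they fall into 19 targets of the transcription factor ATF4, 12 ER chaperones and folding factors, 4 genes of ER-associated degradation, and 6 sensors and upstream factors. The samples were 16 mouse primary neuronal cultures from E15 cortex, 4 in each of 4 groups. CONTROL-VEH received vehicle and a sham procedure, CONTROL-TIA received 10 μM of the antidepressant tianeptine (TIA) and sham, OGD-VEH received vehicle and 3-h oxygen-glucose deprivation (OGD, an in vitro model of stroke), and OGD-TIA received TIA and OGD. TIA or vehicle was given at 8 DIV (days in vitro), 24 h before OGD at 9 DIV, and RNA was taken 6 h after OGD. All cultures were wild type, and glial markers were measured in them beside neuronal ones. The labels number the cultures but do not say which came from the same dissection, so the p-values measure the spread between these cultures.

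In the integrated stress response, kinases that sense different stresses, among them PERK (the product of *Eif2ak3*), phosphorylate the translation factor eIF2. General protein synthesis then slows while *Atf4* mRNA is translated more, and ATF4 protein switches on genes for amino acid synthesis, amino acid uptake and stress signaling. In the unfolded protein response, PERK acts beside 2 other ER membrane sensors, IRE1 (from *Ern1*), which splices *Xbp1* mRNA, and ATF6, which is cut to release a transcription factor; XBP1 and ATF6 switch on chaperones and degradation genes. Both programs are known to respond to ischemia in neurons. Because ATF4 is controlled mainly at translation, and PERK, IRE1 and ATF6 by modification of the proteins, mRNA levels do not show whether they were active.

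Each value is FPKM (fragments per kilobase of transcript, scaled to the mapped fragments of a library) summed over a gene's isoforms. The FPKM also carry the authors' TMM scaling, a further scaling between libraries. Differences are log2 fold changes of FPKM + 0.1. A gene passed the test when its padj, from limma with Benjamini-Hochberg adjustment over all genes tested, was at most 0.05, and it was also a DEG when the log2 fold change was at least 1 or at most -1. The estimated depth was 19.7 to 25.6 M reads per culture, so 1 read on a kilobase of transcript was worth 0.0391 to 0.0507 FPKM. The lowest members in reads were *Nupr1*, with an estimated 8 to 80 reads in a culture, *Trib3* with 12 to 68 and *Cebpb* with 57 to 252. The cultures of a group were not alike. Averaged over the 41 members, the log2 ratio to the CONTROL-VEH mean was lowest among the OGD cultures in OGD-VEH 9, at 0.115, and highest in OGD-VEH 12, at 0.39, and CONTROL-VEH 4 stood apart from the other controls in single members. The summed level of 10 neuronal markers was 2040 to 2690 FPKM in the CONTROL-VEH cultures, 2090 to 2290 in CONTROL-TIA, 1040 to 1890 in OGD-VEH and 1320 to 2120 in OGD-TIA. Over both arms 7 of the 10 neuronal markers fell, 2 of 7 astrocyte markers rose and, of 6 oligodendrocyte lineage markers tested, 4 rose and 1 fell, where 18.7% of all genes rose and 13.4% fell. Of 2 fibroblast and mural cell markers tested, *Dcn* fell. Only *Aif1* of 7 microglial markers and none of 5 endothelial markers passed the filter on low values. In such bulk RNA, fewer cells of a type and less RNA per cell cannot be told apart.

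Some promoters of the members hold DNA elements for which these programs are known, and these sequences are shown first because the ATF4 targets and the ER chaperones are contrasted below. RefSeq promoters (GRCm38.p6, 250 bases before to 50 after the start site) were matched by symbol for 36 of the 41 members, in 39 promoters. The ER stress response element (ERSE) was searched as CCAAT, 9 bases of any kind and CCACG on both strands. It was found in 7 of 10 promoters of ER chaperones, in the promoter of *Syvn1*, in none of 20 promoters of ATF4 targets, and in 39 of all 32851 promoters (0.1%). The elements are printed in their own reading direction, with the 2 fixed blocks in capitals.
Hspa5 (chr2:34772025-34772043, + strand): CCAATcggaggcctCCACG
Hsp90b1, distal (chr10:86705638-86705656, - strand): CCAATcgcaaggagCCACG
Hsp90b1, proximal (chr10:86705533-86705551, + strand): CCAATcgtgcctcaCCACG
Calr (chr8:84847075-84847093, + strand): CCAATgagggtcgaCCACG
Canx (chr11:50325800-50325818, - strand): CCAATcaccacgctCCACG
Creld2 (chr15:88819520-88819538, - strand): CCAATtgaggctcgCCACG
Dnajc3 (chr14:118937827-118937845, + strand): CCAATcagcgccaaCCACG
Pdia6 (chr12:17266491-17266509, + strand): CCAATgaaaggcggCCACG
Syvn1 (chr19:6046532-6046550, + strand): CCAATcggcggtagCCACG
The first base of the element in its promoter lay 65 bases before the start site in *Hspa5*, 212 and 107 in *Hsp90b1*, and between 44 and 162 in the other genes.

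The core of the element that ATF4 binds together with C/EBP factors (CARE) was searched as TGATGNAA on both strands. It was found in 5 of 20 promoters of ATF4 targets (25.0%), in none of 10 promoters of ER chaperones and in 1304 of all 32851 promoters (4.0%). *Herpud1*, an ER-associated degradation gene, held the CARE core together with ERSE-II (ATTGG, 1 base of any kind and CCACG), which only 12 promoters of all held. Each core is shown with 6 bases on either side and its fixed letters in capitals.
Asns (chr6:7693219-7693238, - strand): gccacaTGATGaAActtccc
Chac1 (chr2:119351043-119351062, - strand): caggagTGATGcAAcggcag
Nupr1 (chr7:126625567-126625586, + strand): cctgtcTGATGcAAtctggc
Vldlr (chr19:27216814-27216833, - strand): gagcgcTGATGcAActattg
Trib3 (chr2:152344033-152344052, + strand): cccggcTGATGtAAacctga
Herpud1 (chr8:94386311-94386330, - strand): gcgggcTGATGcAAcccgcc
The core of *Trib3* began 15 bases after the start site and the others 23 to 200 bases before it. The UPRE core, TGACGTGG, which XBP1 binds, was in 222 of all promoters (0.7%) and in no member's. A match is a description of these letters and not a shown binding site.

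The 250 bases before the start site are printed for 4 genes, with the matches in capitals. They are a chaperone with 1 ERSE match, the chaperone with 2, an amino acid gene with a CARE core and the gene with both kinds of element. Only exact matches to the patterns above were searched, so these are counts of matches, and near matches stay in lower case.
Hspa5 (chr2:34771840-34772089, + strand): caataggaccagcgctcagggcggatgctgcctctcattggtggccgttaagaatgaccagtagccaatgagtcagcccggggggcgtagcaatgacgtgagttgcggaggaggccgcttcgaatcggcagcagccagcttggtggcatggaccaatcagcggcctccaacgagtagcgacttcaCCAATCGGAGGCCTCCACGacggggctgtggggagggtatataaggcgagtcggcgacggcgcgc
Hsp90b1 (chr10:86705445-86705694, - strand): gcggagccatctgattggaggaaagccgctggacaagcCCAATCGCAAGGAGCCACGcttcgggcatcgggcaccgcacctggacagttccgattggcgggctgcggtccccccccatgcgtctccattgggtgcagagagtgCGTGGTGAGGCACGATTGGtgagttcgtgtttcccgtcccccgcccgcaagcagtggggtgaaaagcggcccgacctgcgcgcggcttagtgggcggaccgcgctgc
Asns (chr6:7693210-7693459, - strand): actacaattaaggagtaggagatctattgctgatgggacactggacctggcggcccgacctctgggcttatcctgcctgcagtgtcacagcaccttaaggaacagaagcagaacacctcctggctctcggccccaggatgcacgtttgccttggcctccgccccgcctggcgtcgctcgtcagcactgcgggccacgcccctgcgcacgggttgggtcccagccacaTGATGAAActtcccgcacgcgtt
Herpud1 (chr8:94386179-94386428, + strand): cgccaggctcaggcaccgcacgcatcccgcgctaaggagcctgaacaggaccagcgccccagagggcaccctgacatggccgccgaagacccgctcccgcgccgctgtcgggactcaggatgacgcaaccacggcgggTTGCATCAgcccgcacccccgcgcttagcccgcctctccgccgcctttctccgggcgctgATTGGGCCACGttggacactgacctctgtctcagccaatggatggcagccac
Over both arms, 1 of the 8 genes with an ERSE match rose (*Hsp90b1*), as did 1 of the 6 with a CARE core (*Trib3*), neither a larger share than the 18.7% of all genes that rose. The median log2 fold change was 0.04 over the 8 genes and -0.02 over the 6, against 0.075 over all genes tested.

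In vehicle cultures, OGD raised 4 of the 41 genes and lowered none. The 4 were *Cebpb*, *Ddit3* and *Psat1* among the ATF4 targets and *Manf* among the ER chaperones, with log2 fold changes of 1.17, 0.72, 0.855 and 0.43, and only *Cebpb* was a DEG. This is 9.76% of the members, beside 4.99% of all 16346 genes tested that rose and 3.45% that fell. All 4 OGD-VEH cultures lay above all 4 CONTROL-VEH cultures in 9 members (22.0%, against 12.7% of all genes) and below them in 1, *Xbp1* (2.44%, against 9.95%). Leaving out OGD-VEH 9 gave 11 members that passed, and leaving out any one of the other 7 cultures gave 0.

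With TIA, no member passed in OGD-TIA against CONTROL-TIA, as for all genes (0.0% of 16242); 6 members (14.6%) had an unadjusted p under 0.05, fewer than the 19.5% of all genes. The OGD-TIA and CONTROL-TIA cultures separated upward in 6 members, *Trib3*, *Slc7a5*, *Cebpb*, *Hsp90b1*, *Dnajb9* and *Ern1* (14.6%, against 9.51% of all genes). None separated downward, against 6.72% of all genes. The study reported DEGs for this comparison from a test on read counts. With isoforms weighted by length, as described below, 180 genes rose and 146 fell. The absence of calls belongs to this fit of summed FPKM and does not show that no gene responded.

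Over both arms, 8 OGD cultures against 8 CONTROL cultures with TIA as a covariate, 11 members rose and 1 fell. Beside this 26.8% higher and 2.44% lower, 18.7% of all 16313 genes rose and 13.4% fell. The count passing was thus near the background, and its split was toward higher values. With median-ratio scaling in place of the deposited scaling, the split was 9 higher and 2 lower among the members and 2379 higher and 2673 lower among all genes, against 3050 and 2192 in the fit reported here. This comparison uses the same cultures as the 2 separate ones. The 12 members were *Cebpb*, *Atf5*, *Trib3*, *Psat1*, *Ddit3*, *Slc3a2*, *Slc7a5*, *Hsp90b1*, *Manf*, *Ern1*, *Atf6* and, as the one that fell, *Xbp1*. None was a DEG, since no log2 fold change of a member that passed reached 1.

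**Figure D1:**
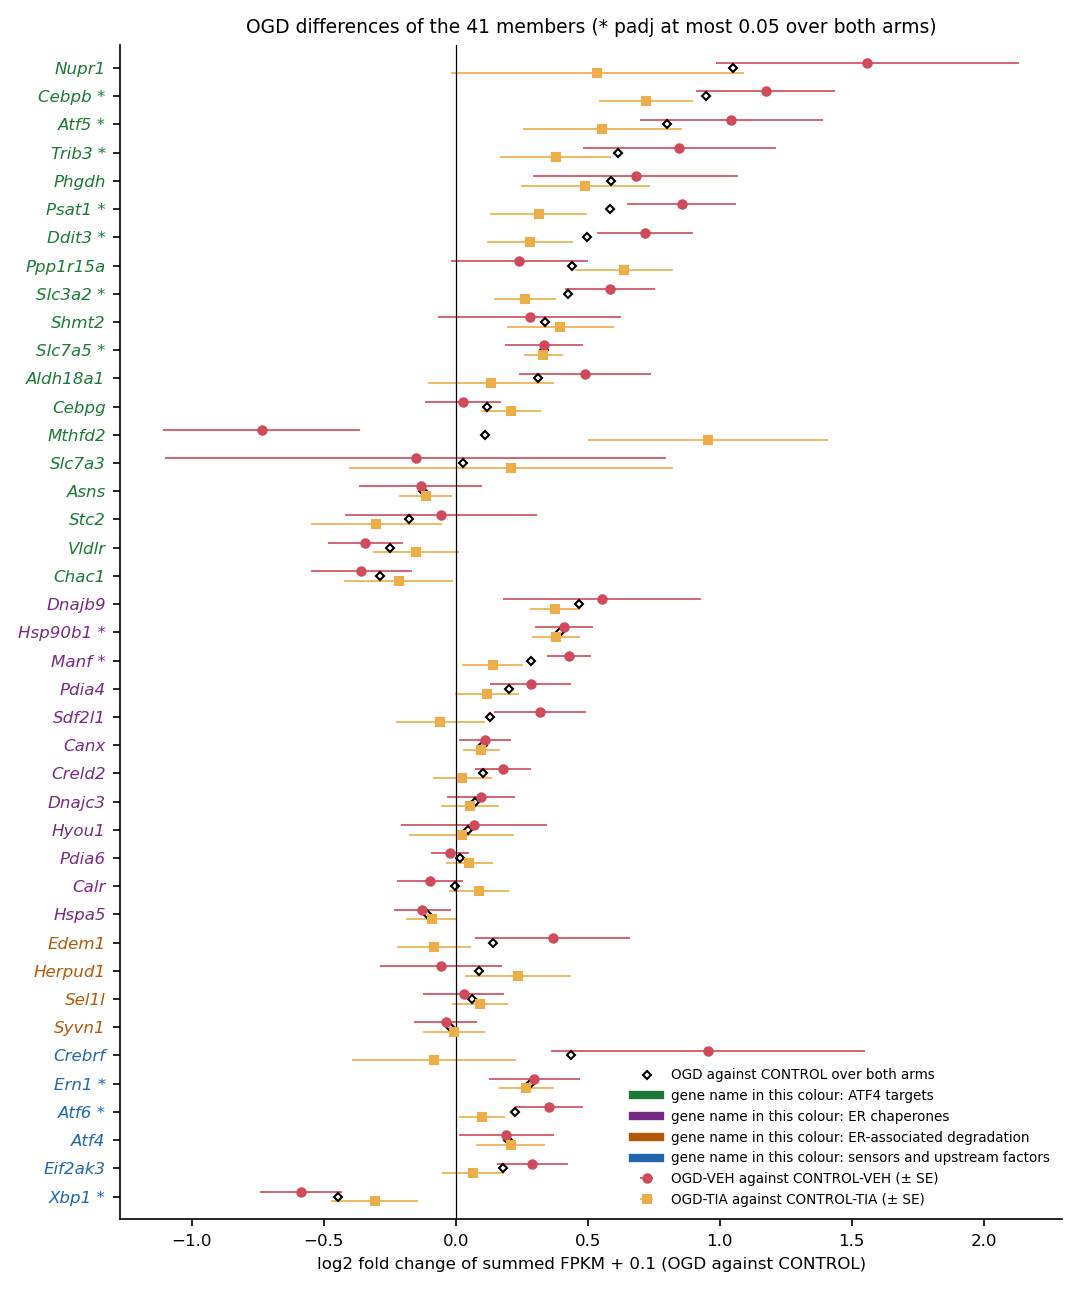
Log2 fold change (x axis) of each of the 41 genes (y axis, grouped by role and ordered by the difference over both arms) in OGD-VEH against CONTROL-VEH (circles) and OGD-TIA against CONTROL-TIA (squares), each with its standard error, and over both arms (open diamonds). *Nupr1*, *Cebpb* and *Atf5* lie farthest to the right over both arms and *Xbp1* farthest to the left, while most ER chaperones and all 4 degradation genes lie near 0.

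Among the ATF4 targets, 4 regulators of stress signaling rose over both arms. *Cebpb* (chr2:167688915-167690418, GRCm38) encodes a C/EBP transcription factor that pairs with other bZIP factors. It measured 1.79, 2.64, 2.45 and 2.11 FPKM in CONTROL-VEH 1 to 4, 2.37, 2.63, 2.43 and 1.86 in CONTROL-TIA 5 to 8, 3.20, 5.27, 5.46 and 7.57 in OGD-VEH 9 to 12 and 3.73, 3.93, 3.04 and 4.98 in OGD-TIA 13 to 16. Every OGD culture was above every control culture. The difference was 2.26-fold in vehicle (limma padj = 0.0421, exact permutation p = 0.0286, the smallest that 4 against 4 allows) and 1.65-fold with TIA (limma padj = 0.128). Over both arms the log2 fold change was 0.95 ± 0.17 (SE, limma padj = 0.00221). An exon of *Tmem189* on the other strand covers up to 312 bases of *Cebpb*. The study made its libraries with a stranded kit, but whether strand was used in counting is not given in the sources used here.

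*Ddit3* (chr10:127290774-127296288) encodes CHOP, a factor linked to cell death under prolonged ER stress. It measured 20.2, 14.1, 15.8 and 16.2 FPKM in the CONTROL-VEH cultures, 18.3, 14.4, 19 and 18.8 in CONTROL-TIA, 20.9, 28.5, 25.9 and 34.8 in OGD-VEH and 21.0, 16.98, 20.8 and 27.7 in OGD-TIA. The vehicle groups did not overlap, by a narrow gap between CONTROL-VEH 1 and OGD-VEH 9, and with TIA they did. The fold was 1.64 in vehicle (limma padj = 0.0484) and 1.21 with TIA (limma padj = 0.371).

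*Atf5* (chr7:44812256-44816658), a bZIP factor whose mRNA is translated under the same control as *Atf4*, had the widest spread of these regulators after OGD. Its values were 66.7, 76.8, 93.1 and 74.7 FPKM in CONTROL-VEH, 111, 86.3, 83.4 and 117 in CONTROL-TIA, 95.8, 144, 137 and 344 in OGD-VEH and 114, 142, 97.9 and 272 in OGD-TIA. OGD-VEH 12 and OGD-TIA 16 were far above the rest. Over both arms the log2 fold change was 0.80 ± 0.25 (SE, limma padj = 0.0235), and in vehicle alone the groups did not overlap but the test was not passed (1.04, limma padj = 0.0776).

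*Trib3* (chr2:152337422-152344032), a pseudokinase that ATF4 and CHOP induce and that restrains ATF4, had the lowest mean summed FPKM of the members. It measured 0.803, 0.796, 0.879 and 0.274 FPKM in CONTROL-VEH, 0.679, 0.853, 0.639 and 0.801 in CONTROL-TIA, 0.922, 1.29, 1.26 and 1.51 in OGD-VEH and 0.886, 0.958, 0.876 and 1.29 in OGD-TIA. The OGD cultures lay above the controls in both arms, narrowly except in OGD-VEH 10 to 12 and OGD-TIA 16. Over both arms the log2 fold change was 0.61 ± 0.21 (SE, limma padj = 0.0331). That call was lost without the filter on low values (limma padj = 0.0682) and without OGD-VEH 10, 11 or 12, CONTROL-TIA 7 or OGD-TIA 16, with padj between 0.0518 and 0.0642.

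**Figure D2:**
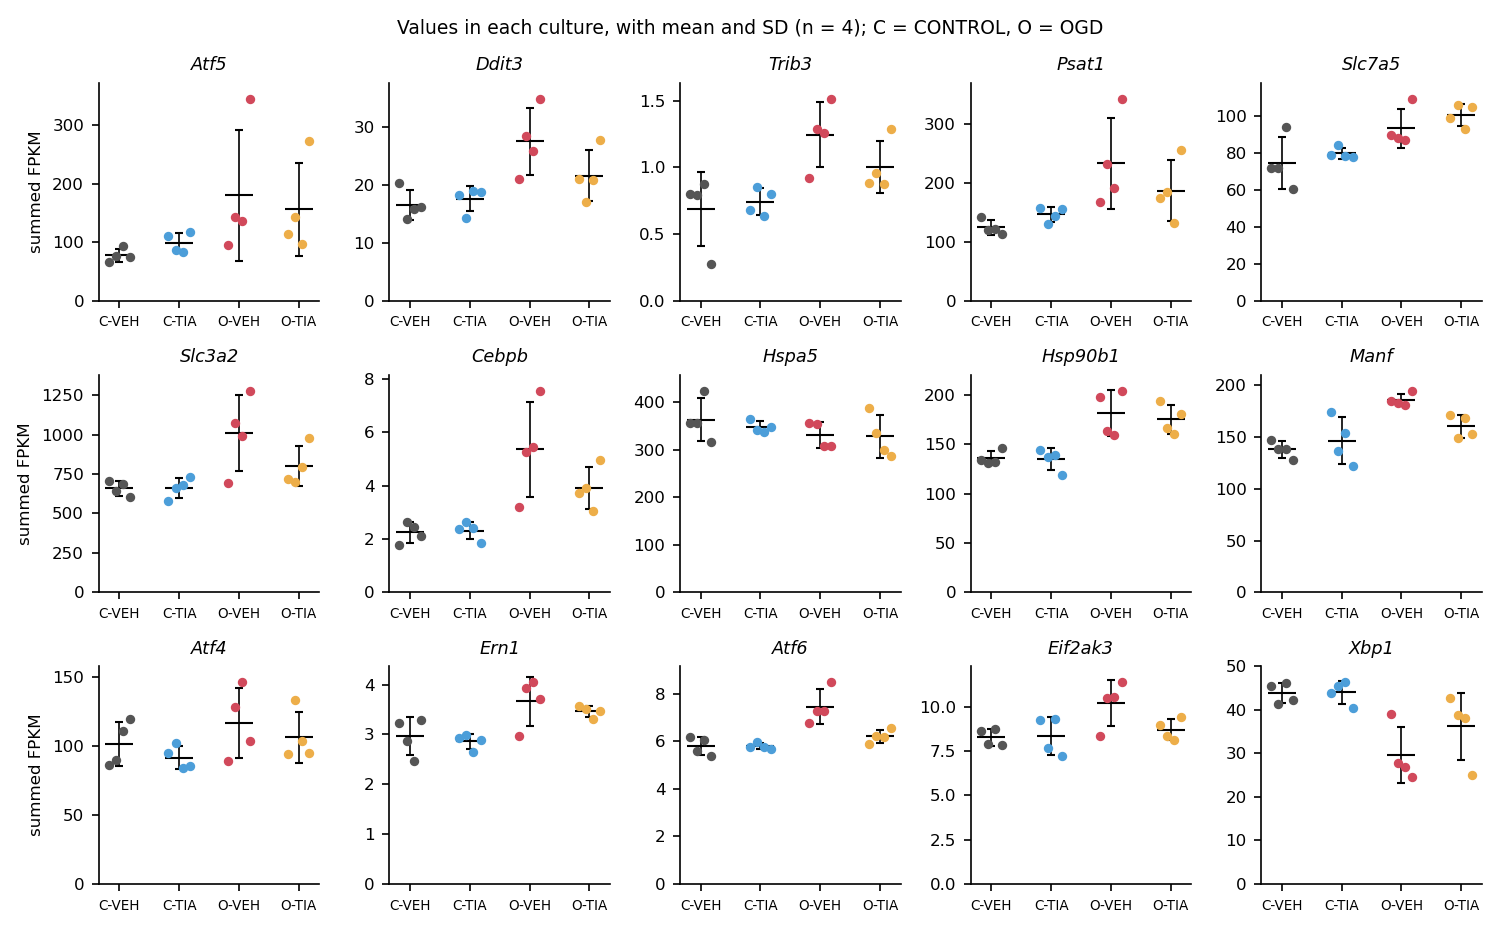
Summed FPKM (y axis, from 0) in each of the 16 cultures (points, by group on the x axis) for the 12 genes that passed over both arms and for *Hspa5*, *Atf4* and *Eif2ak3*, with the mean and SD of each group of 4. *Cebpb* shows no overlap between OGD and control cultures, *Xbp1* is low in 3 OGD-VEH cultures and in OGD-TIA 16, and *Hspa5* shows no separation.

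Of the 9 amino acid genes among the ATF4 targets, 3 rose over both arms and none fell, beside 18.7% of all genes that rose and 13.4% that fell. *Psat1* (chr19:15904678-15947337), an enzyme of serine synthesis, measured 142, 120, 123 and 114 FPKM in CONTROL-VEH, 157, 130, 144 and 156 in CONTROL-TIA, 168, 232, 191 and 343 in OGD-VEH and 174, 185, 132 and 257 in OGD-TIA. It was 1.81-fold higher in OGD-VEH than in CONTROL-VEH, with no overlap (limma padj = 0.045), and 1.24-fold with TIA, where OGD-TIA 15 lay among the controls (limma padj = 0.375).

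*Slc3a2* and *Slc7a5* encode the heavy and light chain of an exchanger that imports large neutral amino acids. *Slc3a2* (chr19:8706882-8723369), the member with the highest summed FPKM, measured 703, 641, 689 and 602 in CONTROL-VEH, 579, 663, 679 and 729 in CONTROL-TIA, 692, 1076, 992 and 1278 in OGD-VEH and 719, 700, 798 and 976 in OGD-TIA. OGD-VEH 9 lay within the controls. Over both arms it rose by 0.42 ± 0.11 on the log2 scale (SE, limma padj = 0.0132).

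*Slc7a5* (chr8:121881150-121907694) measured 72.3, 72.0, 94.4 and 60.9 FPKM in CONTROL-VEH, 79.3, 84.5, 78.7 and 77.8 in CONTROL-TIA, 89.9, 88.2, 87.1 and 109 in OGD-VEH and 99.0, 106, 93.2 and 105 in OGD-TIA. The TIA arms were separate and the vehicle arms overlapped through CONTROL-VEH 3. The log2 fold change was 0.33 in vehicle and 0.33 with TIA, and over both arms it was 0.33 ± 0.08 (SE, limma padj = 0.00772).

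The other 6 amino acid genes did not pass. *Asns*, asparagine synthetase, whose promoter carries the CARE core printed above, had group means of 368 ± 91.99 FPKM in CONTROL-VEH and 333 ± 74.9 in OGD-VEH (SD, n = 4), and a log2 fold change over both arms of -0.12 ± 0.13 (SE). *Phgdh*, which starts serine synthesis, was 187 ± 75.9 FPKM in CONTROL-VEH and 316 ± 168 in OGD-VEH, and over both arms its log2 fold change was 0.59 (limma padj = 0.0714). Its high values were 300 in CONTROL-VEH 4, 550 in OGD-VEH 12 and 347 in OGD-TIA 16. These were the 3 cultures with the highest sums of the 7 astrocyte markers, 1540, 2470 and 1880 FPKM. The other 7 control cultures had sums of 617 to 854, OGD-VEH 9 to 11 had 983 to 1320 and OGD-TIA 13 to 15 had 728 to 874. The targets *Cebpb*, *Ddit3*, *Atf5*, *Trib3*, *Psat1* and *Slc3a2*, which passed, were also highest within their OGD groups in OGD-VEH 12 and OGD-TIA 16. The targets *Asns*, *Chac1*, *Mthfd2* and *Stc2*, which did not pass, were lowest within their OGD groups in the same cultures. These cultures had the lowest sums of neuronal markers in their groups, 1040 and 1320 FPKM. *Slc7a5* was highest in OGD-VEH 12 and OGD-TIA 14. In CONTROL-VEH 4 none of these targets was the highest of its group. The part of these marker sums in the results was not tested. Without CONTROL-VEH 4, or without OGD-VEH 9, *Phgdh* passed.

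*Shmt2* and *Mthfd2*, enzymes of mitochondrial folate metabolism, had log2 fold changes over both arms of 0.34 and 0.11, and *Aldh18a1*, of proline synthesis, of 0.31. *Slc7a3*, a cationic amino acid transporter, ranged from 4.20 to 85.5 FPKM within the CONTROL-VEH group alone.

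The remaining ATF4 targets held no further gene that passed. *Nupr1*, a small stress-induced nuclear protein, had the largest fold of any member in vehicle, from 0.802 ± 0.0910 FPKM in CONTROL-VEH to 3.38 ± 2.56 in OGD-VEH (SD, n = 4), with OGD-VEH 9 at 0.867 and OGD-VEH 10 at 5.71 (limma padj = 0.0974). *Ppp1r15a*, which directs dephosphorylation of eIF2 and so ends the response, had a log2 fold change over both arms of 0.44 (limma padj = 0.0598). *Chac1*, a glutathione-degrading enzyme and a usual marker of ATF4 activity, was 3.97 ± 0.290 FPKM in CONTROL-VEH and 3.13 ± 0.706 in OGD-VEH, and its log2 fold change over both arms was -0.29 (limma padj = 0.117). *Vldlr*, a lipoprotein receptor, was -0.25 (limma padj = 0.0883), the secreted glycoprotein gene *Stc2* was -0.18 and *Cebpg*, a partner of ATF4, was 0.12.

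Of the 12 ER chaperones and folding factors, 2 rose over both arms and none fell, a share no larger than the 18.7% of all genes that rose. *Hsp90b1* (chr10:86690209-86705509), the ER form of HSP90, measured 134, 131, 132 and 146 FPKM in CONTROL-VEH, 144, 137, 139 and 119 in CONTROL-TIA, 198, 163, 160 and 204 in OGD-VEH and 193, 167, 161 and 181 in OGD-TIA. Every OGD culture was above every control culture. The fold was 1.33 in vehicle (limma padj = 0.052) and 1.30 with TIA (limma padj = 0.122), and over both arms the log2 fold change was 0.39 ± 0.07 (SE, limma padj = 0.00197), the smallest padj of any member. Its exons overlap those of a pseudogene on the other strand and of small noncoding genes.

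*Manf* (chr9:106838312-106891979), an ER protein that is secreted under stress and protects neurons, measured 148, 138, 139 and 128 FPKM in CONTROL-VEH, 174, 137, 154 and 122 in CONTROL-TIA, 185, 183, 181 and 195 in OGD-VEH and 171, 149, 168 and 153 in OGD-TIA. The 4 OGD-VEH cultures lay close together and above all 12 others. The fold was 1.35 in vehicle (limma padj = 0.0339) and 1.10 with TIA, where the groups overlapped (limma padj = 0.522). *Manf* shares up to 146 bases of exon with *Dcaf1* on the other strand.

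*Hspa5* (chr2:34771970-34777547) encodes BiP, the main ER chaperone, and is the usual readout of the unfolded protein response. It measured 357, 356, 425 and 316 FPKM in CONTROL-VEH, 366, 342, 337 and 348 in CONTROL-TIA, 356, 355, 309 and 308 in OGD-VEH and 389, 337, 301 and 288 in OGD-TIA. The groups overlapped throughout. The log2 fold change was -0.13 ± 0.11 in vehicle (SE, limma padj = 0.426) and -0.11 ± 0.07 over both arms (SE, limma padj = 0.245).

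The other 9 chaperones had log2 fold changes over both arms from -0.005 (*Calr*) to 0.47 (*Dnajb9*), and none passed. Of the lectin chaperones, *Calr* was 278 ± 29.2 FPKM in CONTROL-VEH and 261 ± 39.3 in OGD-VEH, and *Canx* 264 ± 4.67 and 286 ± 35.8 (SD, n = 4). The protein disulfide isomerase gene *Pdia6* was 181 ± 6.35 and 178 ± 1.41, and *Pdia4* 23.0 ± 1.18 and 28.4 ± 6.08. *Creld2*, a disulfide isomerase with an ERSE match, was 12.7 ± 0.743 and 14.4 ± 0.394, without overlap but with a log2 fold change of only 0.18 (limma padj = 0.252). The cochaperone gene *Dnajc3* was 10.6 ± 0.477 and 11.4 ± 1.53, *Sdf2l1* 5.40 ± 0.891 and 6.73 ± 0.942, and *Hyou1*, a nucleotide exchange factor for BiP, 44.3 ± 12.3 and 46.8 ± 13.4.

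Of the 4 genes of ER-associated degradation none passed in any comparison, and their log2 fold changes over both arms lay between -0.02 and 0.14. *Sel1l* and *Syvn1*, the core of the retrotranslocation ligase, were 91.4 ± 14.6 and 19.8 ± 1.74 FPKM in CONTROL-VEH and 93.1 ± 12.7 and 19.3 ± 1.71 in OGD-VEH (SD, n = 4). *Herpud1*, with its CARE core and ERSE-II, was 28.2 ± 8.49 and 26.5 ± 4.43. *Edem1*, which leads misfolded glycoproteins to degradation, was 24.8 ± 12.3 and 29.6 ± 2.93.

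Of the 6 sensors and upstream factors, 2 rose and 1 fell over both arms, beside 18.7% and 13.4% of all genes. *Atf6* (chr1:170704674-170867771) measured 6.18, 5.59, 6.07 and 5.38 FPKM in CONTROL-VEH, 5.76, 5.97, 5.77 and 5.66 in CONTROL-TIA, 6.75, 7.27, 7.29 and 8.49 in OGD-VEH and 5.87, 6.23, 6.18 and 6.54 in OGD-TIA. The OGD-VEH cultures were above all others. The log2 fold change was 0.35 in vehicle (limma padj = 0.0966), 0.10 with TIA (limma padj = 0.545) and 0.225 ± 0.07 over both arms (SE, limma padj = 0.0276).

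*Ern1* (chr11:106394650-106487852) measured 3.23, 2.86, 2.46 and 3.29 FPKM in CONTROL-VEH, 2.92, 2.98, 2.65 and 2.90 in CONTROL-TIA, 2.97, 3.93, 4.05 and 3.71 in OGD-VEH and 3.57, 3.52, 3.30 and 3.46 in OGD-TIA. It separated the groups with TIA and not in vehicle, where OGD-VEH 9 lay among the controls. Over both arms the log2 fold change was 0.28 ± 0.09 (SE, limma padj = 0.0238). The calls of *Atf6* and *Ern1* were lost with median-ratio scaling (limma padj = 0.0732 and 0.0525) and without OGD-VEH 11 (limma padj = 0.0506 and 0.0503), and that of *Atf6* also without OGD-VEH 10 or CONTROL-VEH 2 (limma padj = 0.0509 and 0.0569).

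*Eif2ak3* (chr6:70844515-70905245) measured 8.67, 7.90, 8.75 and 7.87 FPKM in CONTROL-VEH, 9.25, 7.68, 9.32 and 7.25 in CONTROL-TIA, 8.37, 10.5, 10.6 and 11.4 in OGD-VEH and 8.96, 8.35, 8.16 and 9.42 in OGD-TIA. Only OGD-VEH 10 to 12 stood clearly above the controls, and the test was not passed over both arms (log2 fold change 0.18 ± 0.09, SE, limma padj = 0.12).

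*Xbp1* (chr11:5520659-5525893) was the single member that fell. It measured 45.4, 41.4, 46.3 and 42.3 FPKM in CONTROL-VEH, 43.8, 45.5, 46.4 and 40.4 in CONTROL-TIA, 39.1, 27.8, 26.9 and 24.6 in OGD-VEH and 42.8, 38.9, 38.1 and 25.0 in OGD-TIA. All OGD-VEH cultures were below all controls, OGD-VEH 9 only slightly, and with TIA OGD-TIA 16 was as low as the lower vehicle cultures while OGD-TIA 13 lay among the controls. The log2 fold change was -0.59 in vehicle (limma padj = 0.0508), -0.31 with TIA (limma padj = 0.332) and -0.45 ± 0.12 over both arms (SE, limma padj = 0.0111). These are totals over isoforms, and the IRE1-spliced form was not separated here. In these cultures the sums of neuronal markers stood in the same order at the low end, at 1040 FPKM in OGD-VEH 12, 1320 in OGD-TIA 16, 1360 in OGD-VEH 11 and 1450 in OGD-VEH 10 against 1890 or more in the other 12 cultures, and their part in the fall was not tested.

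*Atf4* itself (chr15:80255184-80257541) measured 86.4, 89.8, 111 and 119 FPKM in CONTROL-VEH, 95.1, 102, 83.8 and 85.7 in CONTROL-TIA, 89.3, 129, 146 and 104 in OGD-VEH and 93.9, 134, 103 and 95.2 in OGD-TIA. The summed values overlapped in both arms, with a log2 fold change over both arms of 0.20 ± 0.11 (SE, limma padj = 0.176). *Crebrf*, a regulator of the unfolded protein response, was 4.49 ± 3.99 FPKM in CONTROL-VEH, where CONTROL-VEH 4 stood at 10.4, and 7.81 ± 3.63 in OGD-VEH (SD, n = 4, limma padj = 0.278).

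The ATF4 targets and the ER chaperones were then set side by side. Over both arms, 7 of 19 ATF4 targets and 2 of 12 chaperones rose, and none of either list fell, beside 18.7% of all genes that rose and 13.4% that fell. The count of chaperones was at the share of all genes. The median log2 fold change was 0.34 for the targets and 0.10 for the chaperones, against 0.075 over all genes tested. In vehicle the medians were 0.33 and 0.14, against 0.10 over all genes, and with TIA 0.31 and 0.07, against 0.04. The targets spread from -0.29 to 1.05 over both arms and the chaperones from -0.11 to 0.47, so the lists overlapped widely. The chaperone median was close to that of all genes. These lists were chosen with results of these data known, and the medians are a description.

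In single cultures, the mean log2 ratio to the CONTROL-VEH mean over the 19 targets was 0.37 ± 0.22 in OGD-VEH and 0.42 ± 0.10 in OGD-TIA, beside 0.125 ± 0.13 in CONTROL-TIA (SD, n = 4). For the 12 chaperones it was 0.18 ± 0.07 in OGD-VEH, 0.06 ± 0.11 in OGD-TIA and -0.04 ± 0.06 in CONTROL-TIA. In OGD-VEH 9 the order was turned, with 0.09 for the targets and 0.25 for the chaperones. The difference of the 2 means was 0.19 ± 0.25 in OGD-VEH and 0.36 ± 0.18 in OGD-TIA, against 0.16 ± 0.17 in CONTROL-TIA, and within CONTROL-VEH it ran from -0.33 to 0.13, so the groups overlapped in it.

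**Figure D3:**
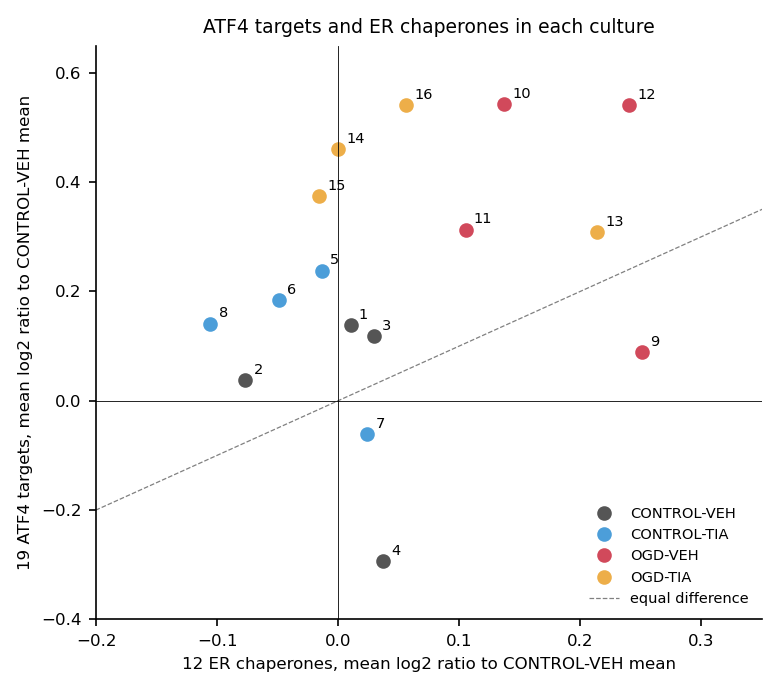
Mean log2 ratio to the CONTROL-VEH mean of the 12 ER chaperones (x axis) and of the 19 ATF4 targets (y axis) in each culture, numbered 1 to 16, with a dashed line where both are equal. The OGD cultures other than OGD-VEH 9 lie above the line, with 0.31 to 0.54 for the targets. CONTROL-VEH 1 to 3 and CONTROL-TIA 5, 6 and 8 also lie above the line, and CONTROL-VEH 4 lies lowest, at -0.29.

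How isoforms were combined changed the picture for several members. FPKM are per base of transcript, so reads that were assigned to a short isoform count for more in a plain sum. In 14 of the 41 genes, isoforms under 700 bases made up over 50% of the summed FPKM. When each isoform was weighted by its length, the median coefficient of variation within the control groups went from 14.1% to 8.63% and was lower in 32 of 41 members. Weighted in this way, 20 members rose and 2 fell over both arms (48.8% and 4.88% of the members, against 27.8% and 17.3% of all genes), and in vehicle 9 rose and 1 fell (22.0% and 2.44%, against 15.3% and 9.79%). With TIA 2 rose, *Ppp1r15a* and *Slc7a5* (4.88%, against 1.09% of all genes). All 12 genes that passed as plain sums over both arms also passed when weighted by length, and in vehicle *Psat1* did not.

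The 10 members that passed over both arms only when weighted were *Atf4*, *Eif2ak3*, *Dnajb9*, *Canx*, *Ppp1r15a*, *Phgdh*, *Shmt2*, *Aldh18a1*, *Cebpg* and, as the one that fell, *Vldlr*. By list, 12 of the 19 ATF4 targets rose, against 4 of the 12 chaperones and 0 of the 4 degradation genes, beside 27.8% of all genes. The count of chaperones was near the share of all genes. The medians were 0.37 and 0.12 for targets and chaperones, against 0.082 over all genes tested. *Hspa5*, *Asns* and *Chac1* did not pass either way.

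**Figure D4:**
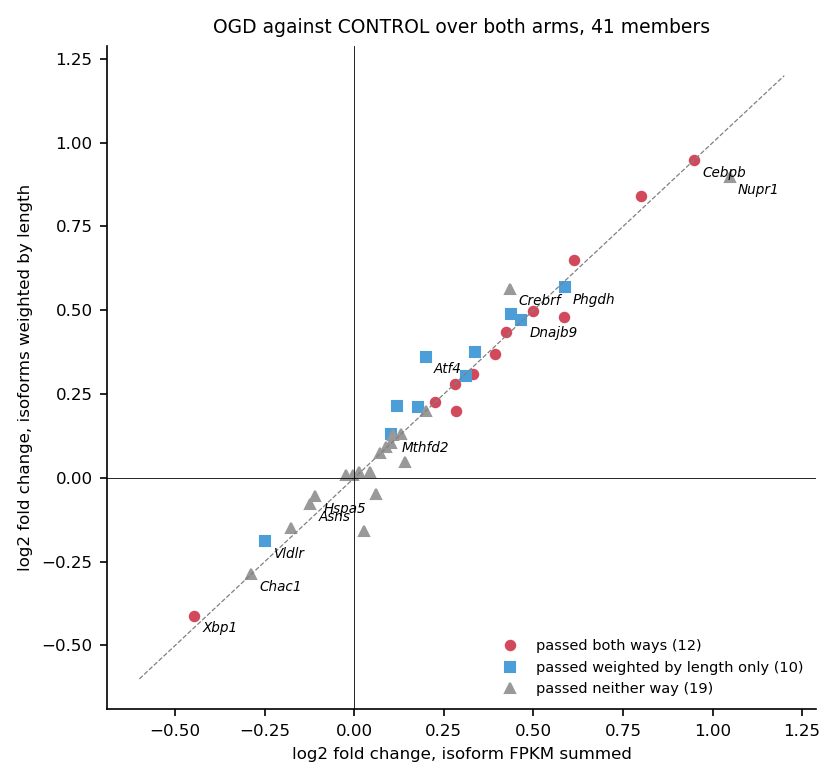
Log2 fold change over both arms for the 41 genes, from summed isoform FPKM (x axis) and from isoforms weighted by length (y axis), with a dashed line where both are equal. The 12 genes that passed both ways, the 10 that passed only when weighted and the 19 that passed neither way are marked, and *Atf4* lies above the line.

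In *Eif2ak3*, *Canx*, *Cebpg* and *Vldlr*, which passed only when weighted, isoforms under 700 bases gave just 1.85 to 4.39% of the summed FPKM. What changed the calls of these genes was not tested. *Atf4* is an example with a variable short isoform. Its full-length isoform (Atf4-201, 1725 bases) measured 63.7, 65.7, 69.2 and 66.6 FPKM in CONTROL-VEH, 61.2, 69.8, 77.6 and 82.2 in CONTROL-TIA, 84.3, 124, 107 and 100 in OGD-VEH and 85.9, 93.4, 101 and 93.0 in OGD-TIA. No OGD culture overlapped a control culture. The short isoform (Atf4-202, 659 bases) swung from 0.0 to 50.0 FPKM without regard to group. Weighted by length, *Atf4* rose by 0.43 ± 0.12 on the log2 scale in vehicle (SE, limma padj = 0.0393) and by 0.36 ± 0.07 over both arms (SE, limma padj = 0.00193).

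*Dnajb9*, a BiP cochaperone and a target of XBP1, was similar. Its main isoform (Dnajb9-201, 2461 bases) ran from 12.01 to 14.2 FPKM in the 8 control cultures, from 15.3 to 26.0 in OGD-VEH and from 15.99 to 19.9 in OGD-TIA. Its short isoform (Dnajb9-202, 383 bases) was 23.3 FPKM in CONTROL-VEH 4, 23.8 in OGD-VEH 9 and 0.0 in the other 14 cultures. Weighted by length, it rose by 0.56 ± 0.14 in vehicle (SE, limma padj = 0.0317). The main isoform of *Xbp1* (Xbp1-201, 2129 bases) ran from 33.8 to 37.8 FPKM in the controls and from 21.0 to 35.6 in OGD-VEH. These isoforms were chosen after their values were seen and were not tested by themselves.

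**Figure D5:**
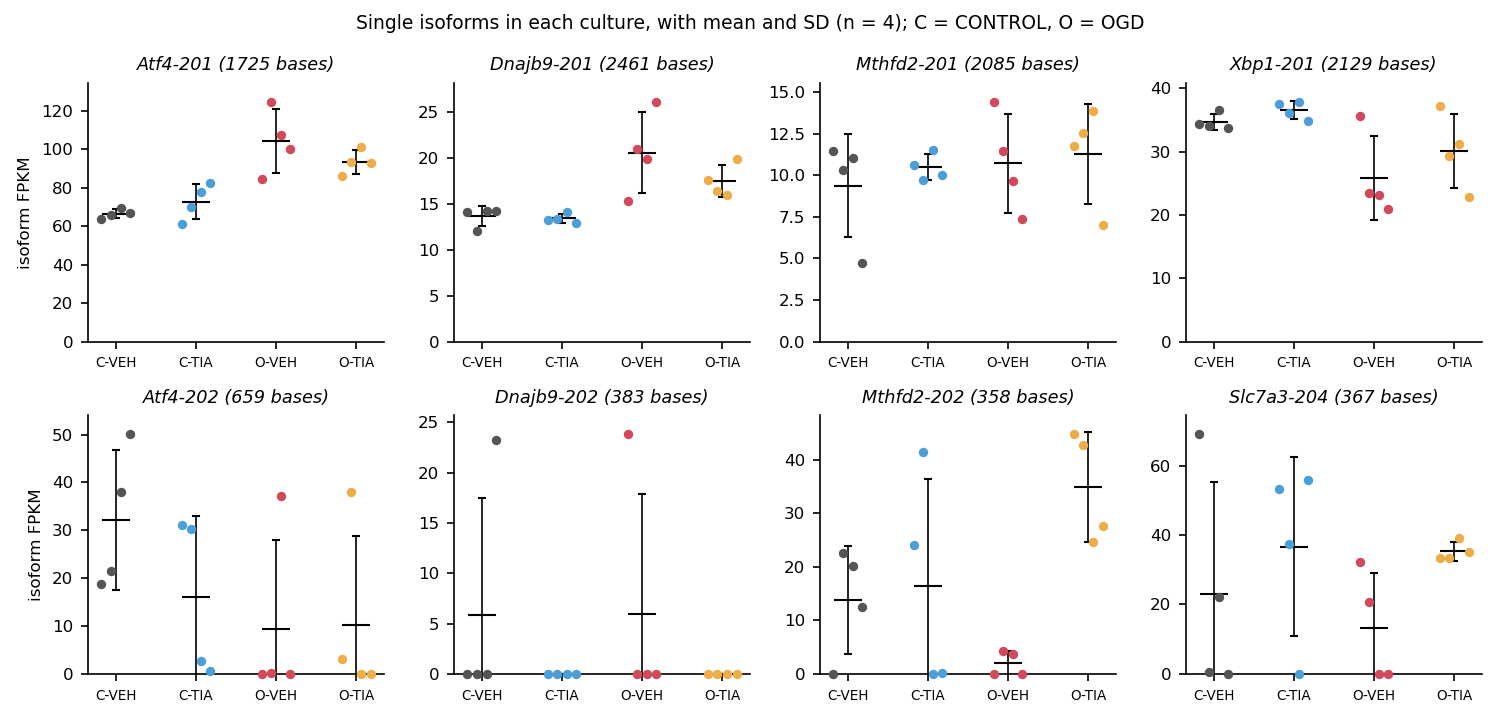
FPKM (y axis, from 0) of 8 isoforms of *Atf4*, *Dnajb9*, *Mthfd2*, *Xbp1* and *Slc7a3* in each culture (points, by group on the x axis), with the mean and SD of each group of 4. The long isoforms of *Atf4* and *Dnajb9* are above the controls in every OGD culture, and their short isoforms jump between 0 and high values within groups. The short isoform of *Mthfd2* is higher in OGD-TIA than in OGD-VEH.

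TIA against vehicle gave no member that passed, in the controls or after OGD, and the same held for all genes (0.0% in each). In CONTROL-TIA against CONTROL-VEH, 3 members had an unadjusted p under 0.05 (*Atf5*, *Psat1* and *Nupr1*), 7.32% against 3.84% of all genes. *Nupr1* was higher in all 4 CONTROL-TIA cultures, 1.06 to 1.56 FPKM against 0.731 to 0.934 (2.44% of members, against 0.965% of all genes), and *Canx* was lower in all 4 (2.44%, against 1.09%). In OGD-TIA against OGD-VEH, 4 members had an unadjusted p under 0.05 (*Mthfd2*, *Slc7a3*, *Dnajb9* and *Manf*), 9.76% against 7.91% of all genes.

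After OGD, 4 members were lower in every TIA culture than in every vehicle culture, *Manf*, *Atf6*, *Dnajb9* and *Creld2* (9.76% of members, against 2.51% of all genes). With isoforms weighted by length, only *Atf6* and *Creld2* of these kept the groups apart. In *Manf* and *Dnajb9* the groups then overlapped, and for *Dnajb9* the separation of the sums rested on the short isoform in OGD-VEH 9. *Manf* was 160 ± 10.9 FPKM in OGD-TIA against 186 ± 6.28 in OGD-VEH, a log2 fold change of -0.215 ± 0.08 (SE, limma padj = 0.551). Its exact permutation p of 0.0286 follows from the separation by which it was picked and adds no support. *Atf6* was 6.21 ± 0.274 against 7.45 ± 0.736 FPKM, a log2 fold change of -0.255 (limma padj = 0.551).

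As a plain sum, *Mthfd2* alone was higher in every OGD-TIA culture (2.44%, against 1.3% of all genes). It measured 88.3, 71.7, 61.9 and 45.9 FPKM in OGD-TIA against 24.4, 20.1, 24.5 and 10.3 in OGD-VEH, a 3.46-fold difference (limma padj = 0.501). Weighted by length, the difference was 1.74-fold and the groups overlapped (limma padj = 0.47). Its main isoform (Mthfd2-201, 2085 bases) was 11.3 ± 3.00 FPKM in OGD-TIA and 10.7 ± 2.97 in OGD-VEH, and the gap stood in other isoforms, chiefly a retained-intron transcript of 358 bases (Mthfd2-202) at 34.9 ± 10.2 against 1.99 ± 2.31.

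Whether OGD acted differently under TIA than under vehicle was tested as an interaction, which no member passed (0.0% of all genes). The smallest limma padj was 0.722, and only *Mthfd2* had an unadjusted p under 0.05 (2.44% of members, against 6.06% of all genes). The absolute log2 fold change after OGD was smaller with TIA in 31 of 41 members (75.6%), as in 73.3% of all 15891 genes tested in both arms.

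Further genes of the 2 pathways that are no members were counted from fixed lists. Of 41 other integrated stress response genes tested, 18 rose over both arms and none fell, beside 18.7% of all genes that rose and 13.4% that fell. In vehicle 3 of the 41 rose, near the 4.99% of all genes. Of 28 other unfolded protein response genes tested, 9 rose and 1 fell over both arms, and in vehicle 2 rose, also near the share of all genes. Their median log2 fold changes over both arms were 0.24 and 0.11, against 0.075 over all genes. The 6 with the smallest p are given here.

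*Eif4ebp1*, a repressor of cap-dependent translation, was 7.02 ± 2.80 FPKM in CONTROL-VEH, 9.51 ± 1.10 in CONTROL-TIA, 28.8 ± 10.2 in OGD-VEH and 20.4 ± 4.61 in OGD-TIA (SD, n = 4), a log2 fold change over both arms of 1.55 (limma padj = 0.00126). *Atf3*, a stress-induced bZIP factor downstream of ATF4, went from 0.287 ± 0.0185 in CONTROL-VEH to 2.62 ± 1.54 in OGD-VEH and from 0.321 ± 0.141 in CONTROL-TIA to 0.921 ± 0.373 in OGD-TIA (1.91 over both arms, limma padj = 0.00259). *Sesn2*, a leucine sensor, was 10.6 ± 2.53 in CONTROL-VEH and 25.5 ± 7.18 in OGD-VEH (0.97 over both arms, limma padj = 0.00233).

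On the ER side, *Sec61b*, a subunit of the ER translocon, was 141 ± 6.05 FPKM in CONTROL-VEH and 187 ± 10.9 in OGD-VEH (0.31 over both arms, limma padj = 0.0016). *Selenos*, a membrane protein of ER-associated degradation, was 40.3 ± 3.21 and 50.5 ± 2.35 (0.33, limma padj = 0.00208). *P4hb*, a protein disulfide isomerase, was 291 ± 34.2 and 449 ± 65.5 (0.45, limma padj = 0.00302).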

How the data were processed

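RNA-seq of 16 cultures was deposited by the authors as 1 table of isoform FPKM, which per the study's methods came from STAR alignment, eXpress quantification and TMM scaling. The submitters' processing notes name the build GRCm38. Of 135276 lines, 74 lacked an identifier and were dropped, and the remaining 135202 isoforms were summed to 53679 gene symbols. Raw counts were not used here, and depth (19.7 to 25.6 M reads per culture) was estimated from 17546 genes with 1 isoform, so read numbers are estimates. The table held 0 further value columns.

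A gene entered a comparison when its mean there reached 0.5 FPKM. It was tested on log2(FPKM + 0.1), a scale that understates changes of low genes, with limma 3.58.1 (trend, empirical Bayes) in R 4.3.3, and with two-sided exact permutation tests over 70 assignments for single genes. Transcript lengths and positions came from GENCODE M21, which held 99.82% of the isoforms. The steps were tested on simulated data. Cultures were grouped by their titles. Per-culture values are given for members that passed in vehicle or over both arms and for *Atf4*, *Ddit3*, *Trib3*, *Xbp1*, *Hspa5*, *Hsp90b1*, *Atf6*, *Ern1* and *Eif2ak3*. *Mthfd2*, *Nupr1* and single isoforms were added after their values were seen. The members and lists were chosen with earlier results of these data known. Alternatives were the pseudocount, the filter, the scaling, length weighting, robust fitting, array weights, a fit of all cultures and leaving out each culture.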

Additional observations from a re-analysis of the deposited data

Results flagged for a closer look

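Within groups of 4 cultures, 16 of 164 sets of values of a member had 1 culture far from the other 3 by Dixon's test, where chance gives about 1 in 20. CONTROL-VEH 4 was the culture in 6 of them. It was low in *Trib3* (0.274 FPKM, the others 0.796 to 0.879) and *Sdf2l1* (4.08, the others 5.66 to 5.97). It was high in *Phgdh* (300.0, the others 142 to 163), *Hsp90b1* (146, the others 131 to 134), *Dnajb9* (37.5, the others 12.01 to 14.2) and *Crebrf* (10.4, the others 2.06 to 3.42). The *Dnajb9* value lay in its isoform of 383 bases. The sum of astrocyte markers in this culture was 1540 FPKM, and that of neuronal markers was 2690 FPKM, the highest of the 16 cultures. The part of these sums in the values was not tested.

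Among the other CONTROL cultures, CONTROL-VEH 1 was low in *Mthfd2* (16.2, the others 38.0 to 39.6). CONTROL-TIA 6 was low in *Ddit3* (14.4, the others 18.3 to 19) and *Canx* (232, the others 253 to 256), and CONTROL-TIA 8 in *Creld2* (10.8, the others 13.1 to 13.2). Among the OGD-VEH cultures, OGD-VEH 12 was high in *Slc7a5* (109, the others 87.1 to 89.9) and *Dnajc3* (13.6, the others 10.5 to 10.7), and OGD-VEH 11 in *Vldlr* (26.6, the others 21.1 to 21.4). OGD-TIA 15 was high in *Slc7a3* (45.2, the others 43.6 to 43.8) and *Edem1* (39.0, the others 28.4 to 29.8) and low in *Sel1l* (86.4, the others 109 to 113).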

How the results depend on the processing

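The number of members that passed in OGD-VEH against CONTROL-VEH was 4, and it was 0 without a filter on low values, 10 with isoforms weighted by length, 15 with array quality weights and 11 with all 16 cultures in one fit. Leaving out 1 culture gave 0 to 11, with 11 without OGD-VEH 9 and 0 without any one of the other 7; fewer cultures were then tested. Over both arms the number was 12, and it was 22 with length weighting, 11 to 16 under the other planned settings and 9 to 15 with 1 culture left out. In OGD-TIA against CONTROL-TIA it was 0, and 2 with length weighting. In OGD-TIA against OGD-VEH it was 0, and 1 (*Mthfd2*) with array quality weights. The cause of these shifts was not tested. The log2 fold change of *Eif2ak3* with TIA, 0.065, ranged from -0.001 to 0.119 with 1 culture left out and was -0.001 without CONTROL-TIA 8. The median of the ATF4 targets minus that of the ER chaperones stayed above 0 with 1 culture left out, at 0.164 to 0.348 in vehicle, 0.134 to 0.311 with TIA and 0.216 to 0.318 over both arms. Of the values of single named members under the planned settings, 350 kept their direction and side of the threshold, 28 newly passed and 9 no longer passed. With 1 culture left out, 437 kept both, 5 newly passed, 37 no longer passed and 1 changed direction. No paired analysis was possible because the labels number the cultures 1 to 16 without a number shared between groups. Low estimated reads limit *Nupr1* (8 to 80) and *Trib3* (12 to 68).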
